A study of Mus musculus with 4 samples.

Results

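Kinesins are motor proteins that walk along microtubules, and this section describes the 42 mouse kinesin genes measured in regulatory T cells (Treg), a kind of CD4 T cell that is defined by the transcription factor Foxp3 and restrains immune responses. They were chosen by name: a probe set had to carry exactly 1 gene symbol, and that symbol had to be Kif or Kifc followed by a digit. These 42 genes, on 45 probe sets, stood among 22180 genes with a single symbol. The data were 4 Affymetrix whole-transcript arrays, 2 from mice injected with anti-DR3, an antibody that stimulates death receptor 3 (a costimulatory receptor of the tumour necrosis factor receptor superfamily) and 2 from mice that received an isotype control antibody. Both antibodies were injected into the peritoneum, and CD4 cells positive for Foxp3 and a green fluorescent reporter were sorted 4 days later. All mice were of the strain labelled Foxp3Luci-DTR-4(B6 Albino), so the controls carried the same Foxp3 reporter alleles. Neither the age of the mice nor whether an array stands for 1 mouse or a pool is stated in the labels. The p-values therefore rest on the spread between single arrays and may reflect technical variation alone.

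A kinesin couples the splitting of ATP to steps along a microtubule, and its tail decides what it carries. Mitotic kinesins build the spindle, move chromosomes and cut the daughter cells apart, and their transcripts accumulate as a cell approaches division. Transport kinesins carry vesicles, mitochondria and endosomes through the cytoplasm in cells that divide and in cells that do not. Resting T cells divide rarely, while activated Treg can enter the cycle. The comparison asked which kinesin genes differed in Treg taken from mice whose DR3 had been stimulated. In sorted cells measured in bulk, a larger share of dividing cells and more transcript per cell cannot be told apart.

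The genes of both kinds differ near their start sites, and these sequences are shown because most of the kinesins called in the array data were mitotic. Promoter windows of 250 bases before to 50 bases after the annotated start came from RefSeq (GRCm38.p6) and matched 33 of the 42 genes. On both strands, 2 short motifs were searched. The first was TTTGAA, the core of the cell cycle genes homology region (CHR), through which the DREAM and MuvB complexes act on late cell cycle genes. The second was CCAAT, the box bound by the factor NF-Y. The stretches below run from 70 bases before the start to 30 bases from the start on, 5′ to 3′ on the gene's own strand, with every match to either motif in capitals (TTCAAA and ATTGG are the same motifs on the opposite strand). The first 7 are mitotic kinesins with a CHR match close to the start. Kif18a is a mitotic kinesin without one, and Kif16b and Kif5c are transport kinesins. The stretches were picked by hand, and both transport stretches shown hold neither motif. Other transport kinesins do hold matches in this range. Kif1a has a CHR match at -44 to -39 in 1 of its windows. Kif3a has a CCAAT match at -18 to -14 and Kif3b at -69 to -65.
Kif11, chr19:37376312-37376411, plus strand: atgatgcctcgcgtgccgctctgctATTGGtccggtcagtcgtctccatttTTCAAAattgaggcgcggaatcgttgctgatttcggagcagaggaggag
Kif15, chr9:122951011-122951110, plus strand: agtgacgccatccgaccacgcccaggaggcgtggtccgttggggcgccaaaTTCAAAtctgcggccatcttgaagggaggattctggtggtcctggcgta
Kif23, chr9:61946770-61946869, minus strand: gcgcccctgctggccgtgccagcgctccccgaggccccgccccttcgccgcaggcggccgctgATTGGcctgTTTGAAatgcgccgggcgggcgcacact
Kif4, chrX:100625995-100626094, plus strand: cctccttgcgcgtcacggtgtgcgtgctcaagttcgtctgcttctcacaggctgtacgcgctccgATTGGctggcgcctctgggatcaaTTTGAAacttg
Kif18b, chr11:102925095-102925194, minus strand: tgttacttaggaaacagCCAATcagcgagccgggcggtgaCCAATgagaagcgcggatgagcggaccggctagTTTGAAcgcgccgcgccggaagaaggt
Kif22, chr7:127042391-127042490, minus strand: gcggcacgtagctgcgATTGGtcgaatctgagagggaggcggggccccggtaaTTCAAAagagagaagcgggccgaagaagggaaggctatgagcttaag
Kifc1, chr17:33890604-33890703, minus strand: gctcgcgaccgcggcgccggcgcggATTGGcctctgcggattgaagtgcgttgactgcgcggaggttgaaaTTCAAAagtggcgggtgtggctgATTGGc
Kif18a, chr2:109280668-109280767, plus strand: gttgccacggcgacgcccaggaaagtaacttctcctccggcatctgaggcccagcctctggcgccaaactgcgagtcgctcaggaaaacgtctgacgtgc
Kif16b, chr2:142901435-142901534, minus strand: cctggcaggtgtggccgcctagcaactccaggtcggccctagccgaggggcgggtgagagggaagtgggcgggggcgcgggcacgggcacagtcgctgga
Kif5c, chr2:49619216-49619315, plus strand: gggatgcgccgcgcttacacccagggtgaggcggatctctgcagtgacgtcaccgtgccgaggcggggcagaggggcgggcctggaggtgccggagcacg

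The CHR hexamer was present in 11 of 13 mitotic kinesin windows (84.6%), against 1 of 12 transport kinesin windows (8.33%). It was present in 2 of 12 windows of the other kinesins (16.7%) and in 17.9% of all 32851 promoter windows searched. Kif18a and Kif2b were the mitotic kinesins whose windows lacked the hexamer. The 9 kinesin genes without a window include Kif20a, which lies on the chromosome left out, and Kif13b. Both were called higher after anti-DR3. Kif13b is the single transport kinesin called. The motif counts therefore do not cover every kinesin called. In the shorter stretch from 70 bases before to 30 bases from the start on, 8 of the 13 mitotic windows held it, against 5.11% of all windows. The CCAAT box was present in 9 of 13 mitotic windows, 4 of 12 transport windows and 37.4% of all windows. Both motifs occurred together in 8 of 13 mitotic windows (61.5%), in 0 of 12 transport windows and in 6.95% of all windows. The motifs overlapped each other in 0 kinesin windows. The 12 transport windows belonged to 10 genes, since Kif1a and Kif1b had 2 start sites each. Median GC content was 60.7% in the mitotic windows, 68.2% in the transport windows and 52.7% in all windows, and its part in these shares was not tested. A match gives the presence of these letters, not binding of a factor.

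**Figure D1:**
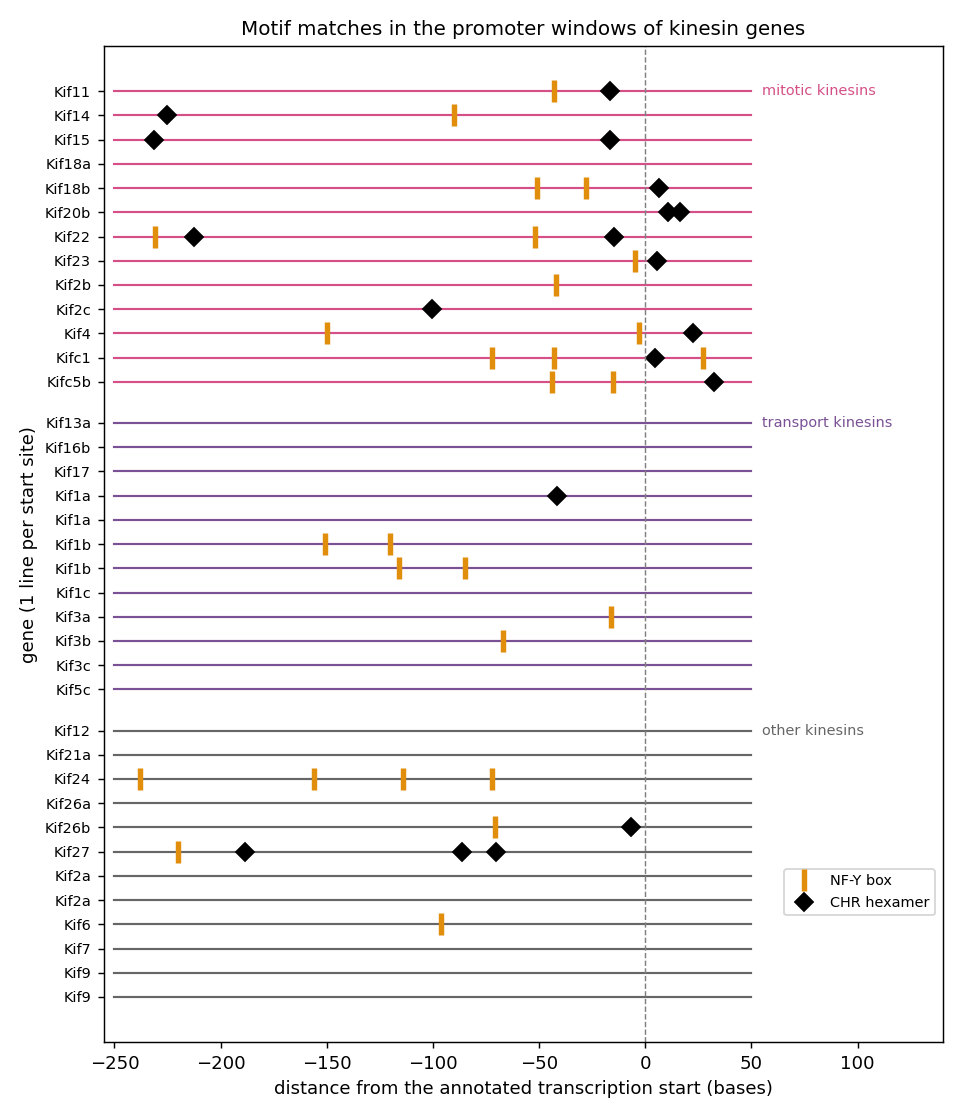
Each line is a promoter window of a kinesin gene, drawn from 250 bases before to 50 bases after the annotated start (x axis, bases). Black diamonds mark the CHR hexamer and orange bars the NF-Y box on either strand. The diamonds lie in 11 of 13 mitotic windows, many of them close to the start, and in 1 of 12 transport windows.

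The genes were grouped by known function into 15 mitotic kinesins, 15 transport kinesins and 12 others that shape microtubules or cilia. A gene was tested where its probe set lay above the median of all probe sets on at least 2 of the 4 arrays, which kept 30 kinesins and set aside 12 as dim. In limma 8 of the 30 rose after anti-DR3 at an adjusted p under 0.05 and 0 fell, with 15 under an unadjusted p of 0.05. Over all 12114 genes tested 5.96% were called, 4.49% as higher and 1.47% as lower, and 26.1% (3166 genes) lay under an unadjusted p of 0.05. The rises divided by function: 7 of 12 mitotic kinesins tested (58.3%), 1 of 12 transport kinesins (8.33%) and 0 of 6 others, with 1 of these 6 at an unadjusted p under 0.05. The median log2 difference, anti-DR3 minus control antibody, was 0.69 for the mitotic kinesins tested, 0.04 for the transport kinesins and -0.04 for the others, beside 0.01 for all genes tested.

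The filter bears on the mitotic count. Kif4, Kif14 and Kif15 passed it through the anti-DR3 arrays alone, so their presence among the tested genes already required them to be higher there. Over all 15 mitotic kinesins, dim ones included, the median difference was 0.50. With only genes above the median on all 4 arrays, 8 mitotic kinesins were tested and 5 were called: Kif11, Kif18b, Kif20a, Kif23 and Kif18a, the last of which did not pass with the default filter. The median of the 8 was 0.48. Under this stricter filter 661 of all 10821 genes tested were called higher and 229 lower. With no filter limma called 14 genes of 22180 and 0 kinesins, although 11 mitotic kinesins lay under an unadjusted p of 0.05. Within the default filter, both anti-DR3 arrays lay above both control arrays for 11 of 12 mitotic kinesins tested (91.7%) and 4 of 12 transport kinesins (33.3%), where 31.6% of all genes tested did so. The 11 include Kif4, Kif14 and Kif15, for which the filter had already required this order. Over all 15 mitotic kinesins, dim ones included, the count was also 11. The reverse order, both anti-DR3 arrays below both controls, held for 0 mitotic, 3 transport and 2 other kinesins tested, against 24.6% of all genes, and either order held for 56.1% of all genes. The single mitotic kinesin tested whose groups overlapped was Kifc5b.

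**Figure D2:**
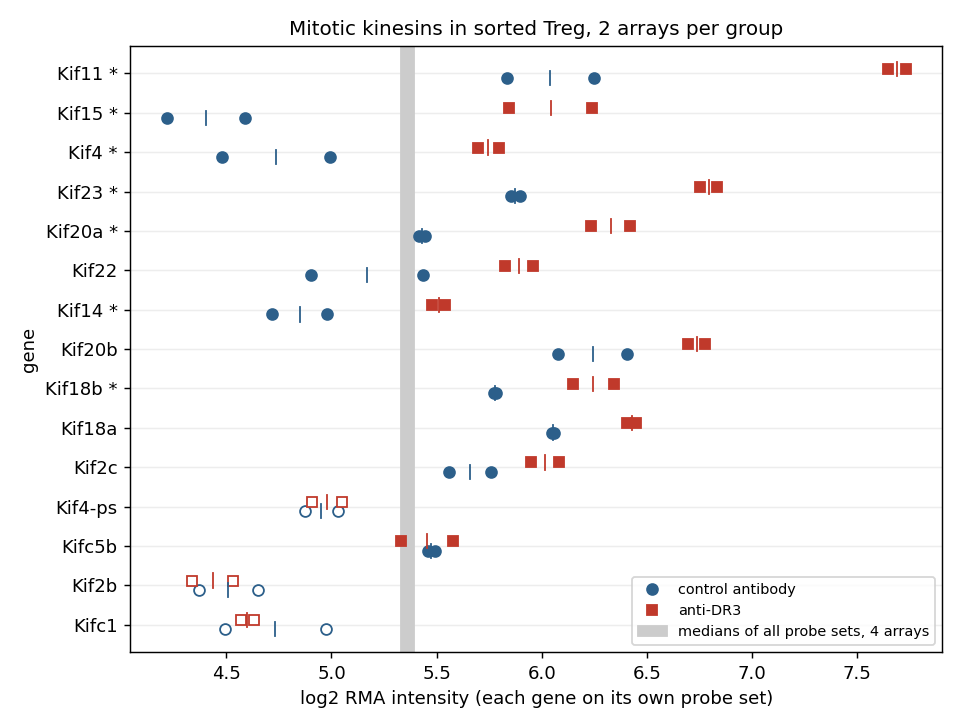
Log2 RMA intensity (x axis) of the 15 mitotic kinesins on each array, with anti-DR3 as red squares, control antibody as blue circles and short lines at the group means. Open symbols are genes too dim to be tested, asterisks mark an adjusted p under 0.05 in limma, and the grey band spans the medians of the 4 arrays. Both red squares lie to the right of both blue circles for 11 genes, from Kif11 down to Kif2c.

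Kif11 (Eg5) and Kif15 slide antiparallel microtubules apart and set up the bipolar spindle. On the log2 scale the intensity of Kif11 was 7.73 and 7.65 on the anti-DR3 arrays, against 5.83 and 6.25 on the control arrays. Both anti-DR3 arrays were far above both control arrays, and the rise was 1.65 ± 0.14 on the log2 scale (SE, n = 2 arrays per group), or 3.14-fold (adjusted p = 0.00988, limma). Kif15, which can take over from Kif11 in holding the poles apart, read 5.84 and 6.24 against 4.22 and 4.59. The groups did not overlap here either, but Kif15 passed the filter through the anti-DR3 arrays alone, so this order was already required. Kif15 rose by 1.64 ± 0.17, or 3.11-fold (adjusted p = 0.0114, limma). These were the largest differences among the 42 kinesins, and their 95% intervals ran from 1.30 to 2.002 and from 1.21 to 2.07.

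A further set of mitotic kinesins acts on chromosomes and on the ends of spindle microtubules. Kif4, a chromokinesin that condenses chromosome arms and later shapes the central spindle, read 5.70 and 5.80 after anti-DR3 against 4.48 and 4.995. Its controls differed more from each other than its anti-DR3 arrays did, and both lay lower, so that Kif4 rose 2.01-fold (1.01 ± 0.17, adjusted p = 0.0317, limma). Like Kif15, Kif4 passed the filter through the anti-DR3 arrays alone. Kif22 (Kid), the other chromokinesin, read 5.83 and 5.96 against 4.90 and 5.44. Its groups did not overlap, but the wide control pair left the difference of 0.72 ± 0.18 outside the threshold (adjusted p = 0.0714, limma).

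The kinesins that trim microtubule ends had smaller differences than Kif11 and Kif15. Kif18b, which acts on astral microtubules, read 6.34 and 6.15 against 5.78 and 5.77 and rose 1.38-fold (0.47 ± 0.095, adjusted p = 0.0473, limma). Kif18a, its relative that damps the swing of chromosomes at the metaphase plate, read 6.45 and 6.41 against 6.05 and 6.06. Its difference of 0.37 ± 0.077 fell just outside the threshold (adjusted p = 0.0501, limma), so the calls of Kif18b and Kif18a should not be read as a contrast between them. Kif2c (MCAK), a kinesin that takes microtubules apart at the centromere, read 5.95 and 6.08 against 5.76 and 5.56, with a difference of 0.35 ± 0.10 (adjusted p = 0.101, limma). These differences were not tested against those of Kif11 and Kif15, but the 95% intervals of Kif18a (0.18 to 0.56) and Kif2c (0.10 to 0.61) end below the start of both of theirs. The interval of Kif18b (0.24 to 0.70) overlaps that of Kif14 (0.39 to 0.93), so this group is not set apart from all other mitotic kinesins.

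Of the 4 kinesins of the central spindle and of cytokinesis, 3 rose. Kif23 (MKLP1) forms the centralspindlin complex with Racgap1. It read 6.75 and 6.83 after anti-DR3 against 5.90 and 5.85, and with this narrow spread it rose 1.89-fold (0.92 ± 0.081, adjusted p = 0.00988, limma). Kif20a (MKLP2), which brings the Aurora B complex to the central spindle, read 6.42 and 6.23 against 5.44 and 5.42. Kif20a rose 1.86-fold (0.90 ± 0.094, adjusted p = 0.0114, limma), close to the rise of Kif23. Kif14, a kinesin of the midbody, read 5.54 and 5.48 against 4.98 and 4.72 and rose 1.58-fold (0.66 ± 0.11, adjusted p = 0.0299, limma). Kif14 too passed the filter through the anti-DR3 arrays alone. Kif20b, which takes part in the last steps of cell separation, read 6.70 and 6.78 against 6.08 and 6.41, and its difference of 0.50 ± 0.12 did not pass (adjusted p = 0.0750, limma). Kif18a, Kif2c, Kif20b and Kif22 were described after their values had been seen.

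The minus-end-directed kinesins of the spindle did not show this pattern. Kifc1 (HSET), which focuses the spindle poles, was too dim to be tested, at 4.63 and 4.57 with anti-DR3 against 4.49 and 4.97 in the controls. Kifc5b, a close copy of Kifc1, read 5.33 and 5.58 against 5.46 and 5.49, with overlapping groups and a difference of -0.02 ± 0.10 (adjusted p = 0.923, limma). Signal of such close copies can be split or shared between probe sets, so both values are uncertain. Both windows hold the CHR hexamer, at bases 2 to 7 from the start on in Kifc1 and at bases 30 to 35 in Kifc5b. The match of Kifc5b thus reaches beyond the shorter stretch used above. Within this class the motif was therefore also found in genes without a measured rise. Kif2b and Kif4-ps, a transcribed pseudogene, were dim and differed by -0.07 and 0.03, with overlapping groups.

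The number of mitotic kinesins called depended on each array. Over all genes tested, the number called also fell whenever 1 array was left out. Limma called 1 of the 12 (Kif15) without anti-DR3 replicate 1, 0 when anti-DR3 replicate 2 was dropped, 2 (Kif11 and Kif23) without control antibody replicate 1, and 6 (Kif4, Kif11, Kif15, Kif20a, Kif22 and Kif23) when control antibody replicate 2 was dropped. The filter was not applied anew in these fits, so Kif4, Kif14 and Kif15 stayed among the 12. The median difference of the 12 ran from 0.61 to 0.77. Across all alternatives the difference of Kif11 lay between 1.44 and 1.85, of Kif15 between 1.44 and 1.84, of Kif4 between 0.75 and 1.27 and of Kif23 between 0.86 and 0.96.

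Most transport kinesins differed little between the groups. The exception that passed was Kif13b (GAKIN), a kinesin-3 motor that carries the scaffold protein Dlg1. Kif13b read 8.64 and 8.80 after anti-DR3 against 7.77 and 8.03, without overlap. It rose 1.77-fold (0.82 ± 0.12, adjusted p = 0.0217, limma), beside 0.66 for Kif14 and 0.47 for Kif18b among the mitotic kinesins called. Without any 1 of the arrays other than control antibody replicate 2 its call was lost, with differences from 0.69 to 0.90 in those 3 fits.

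The heavy chains of conventional kinesin, which pairs with light chains to haul vesicles and mitochondria, gave unlike values. Kif5b, the form found in most tissues, read 9.58 and 9.51 against 9.47 and 9.53, with overlapping groups and a difference of 0.04 ± 0.081 (95% interval -0.16 to 0.24). Kif5c, known from neurons, read 7.10 and 6.81 against 6.05 and 6.65. Its groups did not overlap, yet its controls lay far apart, and the difference of 0.60 ± 0.21 did not pass (adjusted p = 0.141, limma). Kif5a was dim and read 5.20 and 5.15 against 5.63 and 5.30. A second probe set of Kif5b was dim and gave -0.12.

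Kinesin-2 motors, which serve cilia and membrane traffic, showed small differences. Kif3b read 7.23 and 7.27 against 6.95 and 7.07, a difference of 0.24 ± 0.085 without overlap that did not pass (adjusted p = 0.153, limma). Its partner Kif3a gave 0.17 and Kif3c 0.03, and Kif17 was dim at 0.02. Kif3c shared a further probe set with another symbol, which was outside the genes tested and gave -0.14.

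The 4 other kinesin-3 motors tested differed by -0.17 to 0.10, and 0 of them passed. Kif1b, a carrier of mitochondria and vesicle precursors, read 8.06 and 8.09 after anti-DR3 against 8.07 and 8.09, so its arrays nearly coincided (95% interval of the difference -0.19 to 0.19). Kif1c read 6.82 and 6.89 against 6.82 and 6.999, and Kif13a, a motor of recycling endosomes, read 6.999 and 7.11 against 6.87 and 7.03, both with overlapping groups. Kif16b, which moves early endosomes, read 7.33 and 7.38 against 7.54 and 7.504. Both its anti-DR3 arrays were lower than both controls, but the difference of -0.17 ± 0.078 did not pass (adjusted p = 0.246, limma). Kif1a, a neuronal carrier, was dim and differed by 0.41 without overlap. Kifc2 and Kifc3 differed by -0.11 and -0.10. Of the 11 transport kinesins tested that did not pass, 10 had a 95% interval wholly within 0.5 log2 units of 0, Kif5c being the exception.

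**Figure D3:**
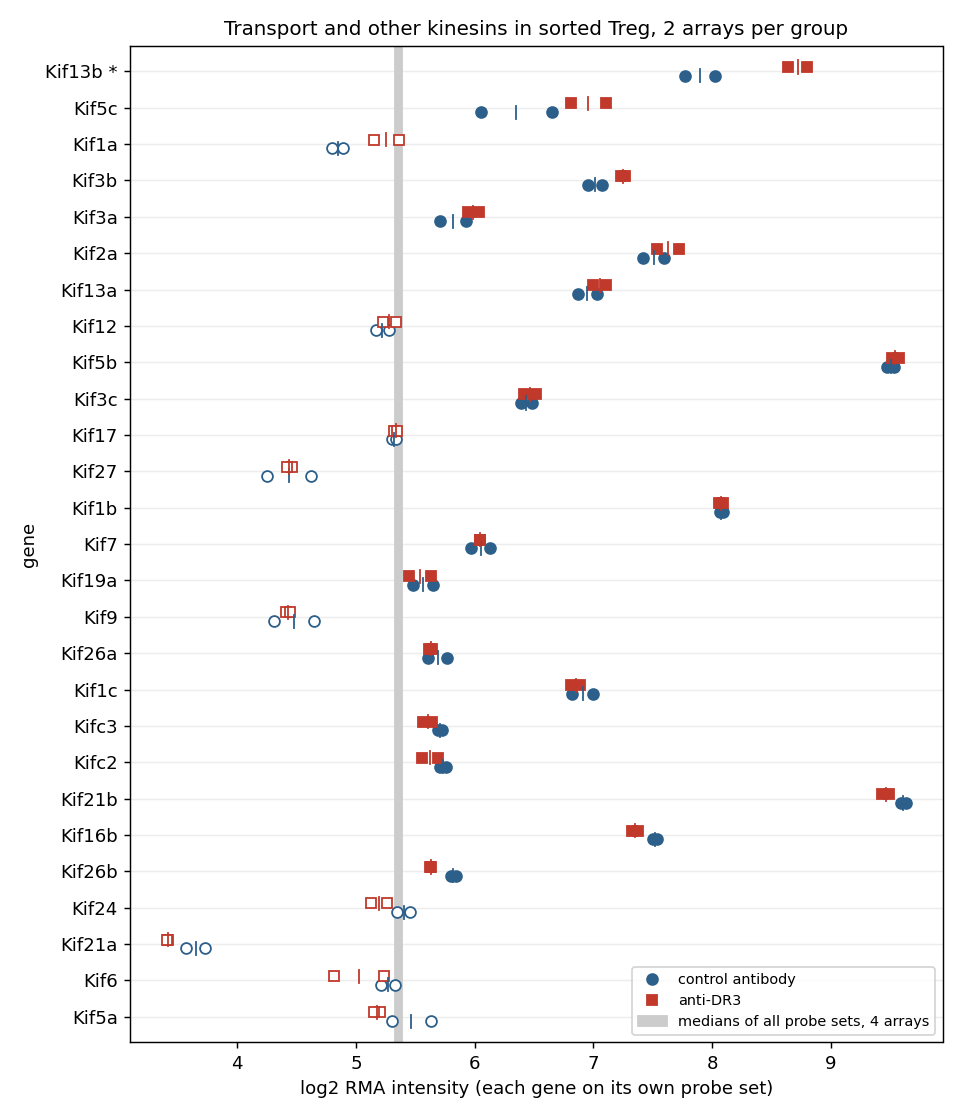
Log2 RMA intensity (x axis) of the 15 transport and 12 other kinesins on each array, with symbols as for the mitotic kinesins. Red squares and blue circles lie close together for most genes. Kif13b is the single gene with an asterisk, and Kif21b, Kif16b and Kif26b are among the genes with both red squares to the left of both blue circles.

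Among the other kinesins 0 of 6 tested passed, where 5.96% of all genes tested were called. Of the 6, 5 had a negative difference, where 6352 of all 12114 genes tested had a positive one. Whether the class as a whole was lower was not tested. Kif21b, which slows and pauses microtubule growth, read 9.49 and 9.43 after anti-DR3 against 9.59 and 9.63. The groups did not overlap, and the difference was -0.15 ± 0.079 (adjusted p = 0.298, limma). Kif2a, a relative of Kif2c that takes microtubules apart outside mitosis as well, read 7.53 and 7.72 against 7.42 and 7.60, a difference of 0.12 ± 0.11 with overlap. Set beside Kif2c at 0.35, its interval of -0.14 to 0.38 overlaps that of Kif2c, and the difference between the relatives was not tested. Kif26b differed by -0.19, the lowest value of the class among genes tested (adjusted p = 0.191, limma). Kif7, Kif19a and Kif26a, of which the first 2 belong to cilia, differed by -0.0052, -0.02 and -0.06. All 6 had a 95% interval within 0.5 log2 units of 0. The dim members Kif6, Kif9, Kif12, Kif21a, Kif24 and Kif27 differed by -0.24 to 0.06, and a second dim probe set of Kif27 gave -0.51 and one of Kif7 0.20.

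**Figure D4:**
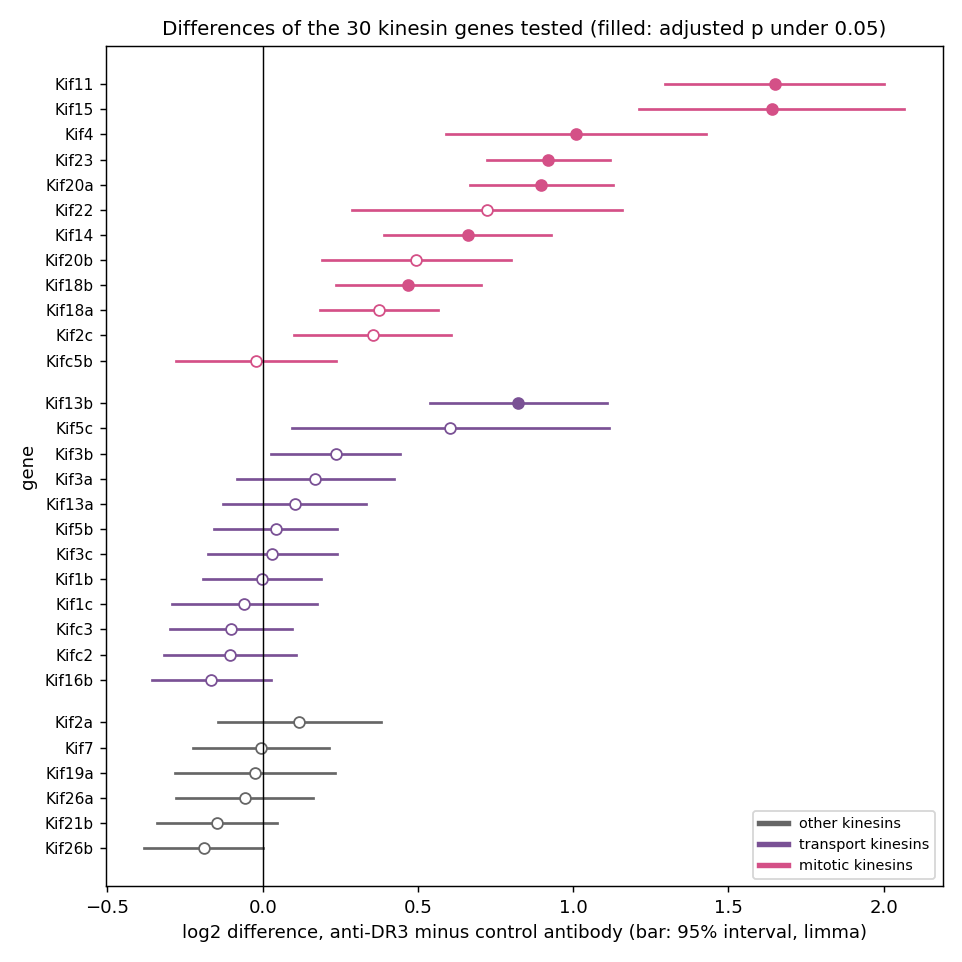
Log2 difference, anti-DR3 minus control antibody (x axis), of the 30 kinesin genes tested, with the 95% interval from limma as a bar and filled points for an adjusted p under 0.05. The mitotic kinesins lie to the right of 0 except Kifc5b, while the transport and other kinesins gather around 0 apart from Kif13b and Kif5c. For Kif4, Kif14 and Kif15 the filter had already required a higher value after anti-DR3.

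Genes that work with these motors were set beside them. Of 17 mitotic partner genes tested 11 rose and 0 fell, where 4.49% of all genes tested were called higher. The partners had a median of 0.90, and 3 of 20 were too dim to be tested. Nusap1, Anln and Hmmr passed the filter through the anti-DR3 arrays alone, so they too had to be higher there. With only genes above the median on all 4 arrays, 8 of 13 partners rose and the median was 0.88, where 661 of 10821 genes rose. Cenpe, a kinesin of the kinetochore whose symbol lies outside the naming rule, rose 3.02-fold, and Tpx2, which targets Kif11 and Kif15 to the spindle, rose 2.33-fold (adjusted p = 0.00626 for both, limma). Nusap1, a microtubule bundler, rose 2.60-fold (adjusted p = 0.00606, limma), with its control arrays below the array median. Racgap1 rose 1.95-fold (adjusted p = 0.0102, limma). Racgap1 thus rose by 0.96 on the log2 scale, beside 0.92 for Kif23, its partner in centralspindlin. The list was drawn up with earlier results of these data known, and many of its genes are known to rise with the same phase of the cell cycle.

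The transport side had 0 calls among 17 light chains and adaptors tested, with a median of 0.01. Its 1 member under an unadjusted p of 0.05 was Mapk8ip1 (1.26-fold, adjusted p = 0.0965, limma). Over all genes tested 5.96% were called. At that share lists this short would hold few calls, so the low counts in this paragraph do not set these lists apart from all genes. Kifap3, the subunit that joins Kif3a and Kif3b to cargo, stood at 1.12-fold, Ktn1, the kinesin receptor kinectin, at 0.90-fold and Kidins220 at 0.90-fold, with 0 of these past the threshold. Dynein and dynactin, which move cargo the opposite way along microtubules, had 1 fall among 21 genes, Bicd2, a cargo adaptor (0.76-fold, adjusted p = 0.0482, limma), and a median of 0.16. Dynlrb1, Dctn3 and Dctn2 stood at 1.28-, 1.27- and 1.27-fold without passing, and 9 of the 21 lay under an unadjusted p of 0.05, where 26.1% of all genes tested did. Tubulins, the track itself, had 0 calls among 12 and a median of 0.00060, with 1 under an unadjusted p of 0.05. The largest tubulin differences by test statistic were those of Tubb4b (0.70-fold), Tubb2a (0.84-fold), Tubb4a (0.90-fold) and Tuba1c (1.12-fold).

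**Figure D5:**
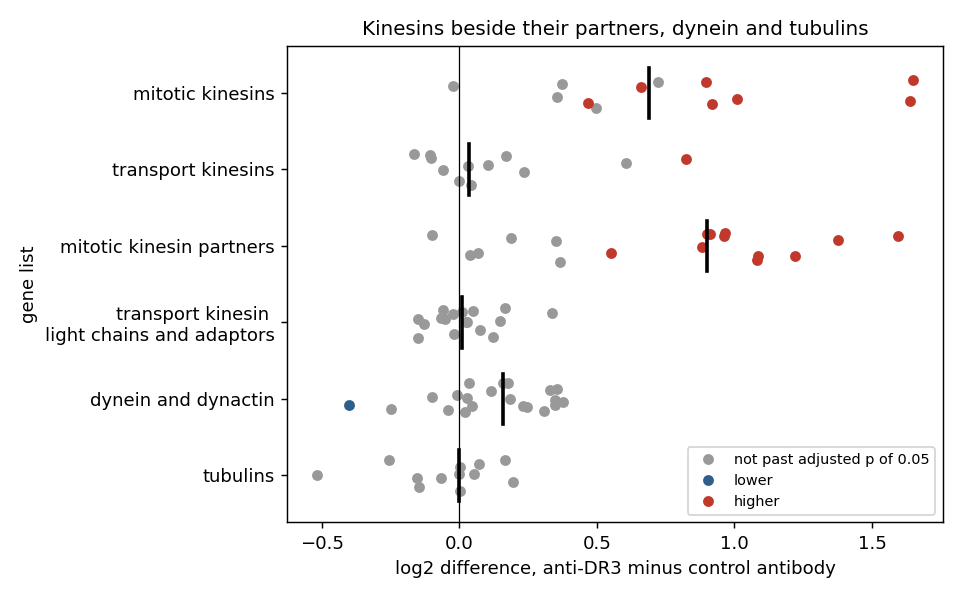
Log2 difference, anti-DR3 minus control antibody (x axis), of each gene tested in 6 lists (y axis, points spread vertically for legibility), with black bars at the list medians. Red points rose and the blue point fell at an adjusted p under 0.05 in limma. The medians of mitotic kinesins (0.69) and their partners (0.90) stand apart from those of the other 4 lists (0.00060 to 0.16).

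The sorted cells carried the markers of Treg. Foxp3, Cd4, Cd3e, Il2ra, Ikzf2 and Ctla4 were above the array median on all arrays, and Foxp3 stood at 1.05-fold (adjusted p = 0.671, limma). Il2ra, the alpha chain of the interleukin-2 receptor, was lower after anti-DR3 (0.71-fold, adjusted p = 0.0441, limma), and Ikzf2 (Helios) was higher (1.49-fold, adjusted p = 0.0193, limma). Among markers of other cells, 3 of 4 B cell genes tested rose (Ighm, H2-Aa and H2-Ab1), where 4.49% of all genes tested were called higher. The summed intensity of the 7 listed B cell genes was 4369 and 4567 after anti-DR3 against 2834 and 3052. Most of these sums was Ighm, an immunoglobulin heavy chain gene, at 3990 and 4215 against 2539 and 2771. Ighm had 7 probe sets, of which the brightest alone was used. Cd79b differed by 0.18 on the log2 scale with overlapping groups and did not pass. The B cell genes Cd79a, Ms4a1 and Pax5 were too dim to be tested. The sums were 336 and 365 against 306 and 280 for 4 CD8 T cell genes. Of these Cd8b1 rose, while Gzmk and Eomes differed by -0.16 and 0.05 on the log2 scale without passing, and Cd8a was dim. For 6 monocyte genes the sums were 259 and 295 against 224 and 249. Of these Csf1r rose, while Itgam and Lyz2 differed by 0.47 and 0.43 without passing. The dim Adgre1, Fcgr1 and Cd14 differed by -0.34, -0.32 and 0.22. Of 3 natural killer and 5 neutrophil genes 0 were bright enough to test. The part of these other cells in the kinesin differences was not tested. Over the genes tested, the correlation was 0.989 to 0.992 within groups and 0.975 to 0.980 between them.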

How the data were processed

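Each probe set has a deposited intensity from robust multi-array average (RMA), the method named in the submitters' processing notes. Values reach far beyond what log2 intensities can, so the scale is linear. The RMA software and the genome build are not named in the labels. RMA brings the arrays towards a shared distribution, which can hide a change common to all genes. The deposited values did not share it fully. Their median intensity was 40.2 and 40.4 on the anti-DR3 arrays against 41.6 and 42 on the control arrays. Log2 was taken, and each gene was represented by its brightest probe set. Of 41345 probe sets 23521 had 1 symbol, 1814 several and 16010 none listed, and all 42 kinesin identifiers matched RefSeq. The comparison used limma 3.58.1 (R 4.3.3, lmFit and eBayes, two-sided, 2 residual and 3.94 prior degrees of freedom), with Benjamini-Hochberg adjustment over 12114 genes and a threshold of 0.05. An exact permutation test of 2 arrays against 2 cannot go below p = 0.333, and the number of arrays limits precision. The code was tested on simulated data. The rule named kinesins past the threshold, the 8 brightest that were not, and up to 4 partners per list by test statistic. Members, lists and motifs were chosen with earlier results of these data known.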

Additional observations from a re-analysis of the deposited data

How the results depend on the processing

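Over 16 alternatives, the 8 called kinesins kept call and direction in 70 of 125 values and lost the call in 55, with 0 reversed. The 8 named kinesins that did not pass gained a call in 0 of 128 values, and 6 turned sign around 0: Kif1b, from -0.0187 to 0.0155 with each array left out, Kif1c, from -0.1487 to 0.0314 likewise, and Kif5b, at -0.0191 with arrays centred on their median, -0.0050 with quantile normalization and -0.0388 with the mean of all probe sets. With each array left out, limma called 0 to 245 genes higher and 0 to 67 lower, 0 to 6 mitotic kinesins and 0 to 1 transport kinesins. The mitotic median was then 0.61 to 0.77, and the transport median -0.0016 (without control antibody replicate 1) to 0.0739. Main values were 544 genes higher and 178 lower, 7 mitotic and 1 transport kinesins. No filter gave 14 genes higher, 0 lower, 0 mitotic and 0 transport kinesins (3573 genes under an unadjusted p of 0.05) and a mitotic median of 0.50, and the filter on all 4 arrays a median of 0.48. Centring gave 348 higher and 243 lower, a mitotic median of 0.63 and a transport median of -0.0245. A trended robust prior gave 1082 higher and 362 lower, and an adjusted p under 0.10 gave 1171 and 518. The ordinary linear model and every probe set on its own each gave 0 higher, 0 lower, 0 mitotic and 0 transport kinesins (2087 and 4121 under an unadjusted p of 0.05). A 2-fold minimum left 69 higher, 3 lower, 3 mitotic and 0 transport kinesins. Where not set by the construction of the alternative, the cause was not tested. The labels do not say what replicate numbers share, and differences between replicates correlated at 0.0512 between groups. The replicate block gave 7 mitotic kinesins, with Kif22 gained and Kif18b lost (adjusted p = 0.0621), and 563 genes in all. Kif18b also lost its call with array weights (adjusted p = 0.0516) and centring (0.0684). Its call was lost in 11 of the 16 alternatives in all, the most among the 8 called kinesins.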
